A study of Mus musculus with 9 samples.

Results

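The members described here are the 7 genes of 2 small families of RNA-binding proteins that control translation near synapses. The CPEB family has 4 members in mouse (Cpeb1, Cpeb2, Cpeb3 and Cpeb4) and the FMRP family has 3 (Fmr1, Fxr1 and Fxr2). They were picked by gene symbol, with no threshold on their values, though with earlier results of these data known. All 7 were found among the 47729 gene identifiers of the data and passed the filter on low values, like 13695 genes in all. CPEB proteins bind a short uridine-rich signal in the 3′ end of an mRNA, the cytoplasmic polyadenylation element, and hold the mRNA silent with a short poly(A) tail or, once the neuron is stimulated, help to lengthen the tail and start translation. FMRP, the product of Fmr1 and the protein lost in fragile X syndrome, sits on polyribosomes and slows translation of many synaptic mRNAs, and Fxr1 and Fxr2 encode its close relatives. BDNF acting on its receptor TrkB is a known trigger of local translation in dendrites.

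The RNA came from polyribosomes that were precipitated through a hemagglutinin tag from the dorsal striatum, in C57BL/6 mice aged 28 postnatal days. In all 3 groups Cre recombinase under control of the D1 dopamine receptor gene switched on the tag (RiboTag), so the target cells were the D1 medium spiny neurons, the striatal neurons of the direct pathway. The 3 groups of 3 libraries were D1-Cre-flTrkB-RT mice (Cre, floxed TrkB and tag) with stereotypy, mice of the same genotype without stereotypy, and D1-Cre-RT controls with Cre and tag but no floxed TrkB. The stereotypy groups were thus told apart by behavior and not by genotype, deletion is limited to cells in which this Cre is active, and the labels name no sex, batch or pooling of animals. The labels call the libraries of a group biological triplicates.

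Libraries held 27103152 to 31117135 reads with stereotypy, 35702420 to 40578512 without and 32615356 to 36535817 in controls. The targeted gene Ntrk2, which encodes TrkB, had 34.3, 43.9 and 40.7 CPM (a depth-scaled read count) with stereotypy and 23.4, 14.1 and 19.2 CPM without, against 319, 385 and 487 CPM in controls, so its level followed the labels. The remaining Ntrk2 RNA was also higher with than without stereotypy (log2 change 1.05, SE 0.19, limma adjusted p = 0.0206). The part of this in the differences of other genes between these groups was not tested. All 8 marker genes of D1 neurons were detected, and Drd1 alone had 515 to 955 CPM across the libraries. No RNA from before the precipitation is among the libraries, so enrichment was not measured. RNA of other cells was present too. The summed level of 10 astrocyte markers was 636 to 664 CPM with stereotypy, 448 to 561 CPM without and 450 to 557 CPM in controls. Most of this sum was Slc4a4 alone, at 366 to 429 CPM with stereotypy, 229 to 275 CPM without and 249 to 289 CPM in controls. The markers Aldoc and Slc1a3 had means of 29.1 and 10.2 CPM over all libraries. Whether the Slc4a4 RNA came from astrocytes was not tested. That of 6 markers of cortical excitatory neurons was 156 to 281 CPM with stereotypy, 579 to 1423 CPM without and 271 to 848 CPM in controls. In such bulk precipitates, fewer cells of a type and less RNA per cell cannot be told apart.

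All members but Fxr2 carry the signal that CPEB proteins read in their own 3′ UTR, and the copies nearest to the 3′ end are shown here so that the sequence can be compared between them. The letters TTTTAT and TTTTAAT, the DNA spelling of the element, were searched on the transcript strand of the longest annotated 3′ UTR of each gene. At least 1 copy was found in 64.7% of the 12085 tested genes with an annotated 3′ UTR. Neighbouring copies can share bases. In the windows of 30 bases below, from GENCODE M21 on GRCm38, capitals mark the element.
Cpeb1, minus strand, chr7:81347257-81347286: cttgacttttctTTTTAATttaacgattac
Cpeb2, plus strand, chr5:43289554-43289583: taatttagtttaTTTTATtgttatcttcca
Cpeb3, minus strand, chr19:37021506-37021535: ggaataaattaaTTTTATgatgctaattct
Cpeb4, plus strand, chr11:31935406-31935435: gggtaattcattTTTTATtaaagtcatttt
Fmr1, plus strand, chrX:68717917-68717946: ctagatgtaaatTTTTATtaaaaagttgca
Fxr1, plus strand, chr3:34069436-34069465: cttttgttacatTTTTAATaatatgcaacc

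The 3′ UTR of Cpeb4 (4102 bases) held 17 copies and that of Cpeb2 (3778 bases) held 24, more than 99.3% and 99.9% of the tested genes had. Per kilobase of UTR these were 4.14 copies for Cpeb4 and 6.35 for Cpeb2, still more than in 94.6% and 98.2% of the genes. Cpeb3 had 6 copies, Cpeb1 and Fmr1 had 4 each, Fxr1 had 1 and Fxr2 had none in its 598 bases. The last copy of Fmr1 began 35 bases before the annotated end of the transcript, the range in which such elements are usually placed, whereas the last copy of the other members with an element began 159 (Cpeb2) to 875 (Fxr1) bases before it. In frog oocytes, Cpeb4 mRNA is itself a target of CPEB1 through such elements. A match is a description of the sequence and shows no binding in these cells.

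Per kilobase of exon, Fxr2 was the most abundant member in every group. Within the CPEB family Cpeb4 had the highest mean with stereotypy and in controls, while Cpeb3 and Cpeb4 were level without stereotypy (both 11.5 CPM per kilobase). Fxr2 stood at 42.8 ± 3.66 CPM per kilobase with stereotypy, 48.3 ± 5.02 without and 48.2 ± 6.12 in controls (SD, n = 3 each, as for all means here). Cpeb4 stood at 19.2 ± 1.68 with stereotypy, 11.5 ± 0.841 without and 16.0 ± 0.307 in controls. Below it in controls came Cpeb3 (11.8 ± 1.44), Fxr1 (10.7 ± 0.923), Cpeb2 (9.27 ± 0.435), Fmr1 (6.24 ± 1.42) and Cpeb1 (4.80 ± 0.442 CPM per kilobase). Among neighbours in this order, the means of Cpeb3 and Fxr1 differed by less than the larger SD of the pair, and those of Fmr1 and Cpeb1 by about as much as the SD of Fmr1. The order depends on the exon length used: by the longest transcript in place of all annotated exons, Fxr1 (23.2) stood above Cpeb4 (16.2) in controls and Fmr1 (12.7) above Cpeb2 (10.3).

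The summed level of the CPEB family was lowest without stereotypy, and that of the FMRP family was about the same in the 3 groups. The 4 CPEB mRNAs summed to 46.8 ± 2.08 CPM per kilobase with stereotypy, 33.3 ± 4.05 without and 41.9 ± 2.17 in controls. The libraries without stereotypy, at 30.1 to 37.9, all lay below the controls at 39.4 to 43.2, and these lay below the stereotypy libraries at 44.5 to 48.6. The 3 FMRP mRNAs summed to 62.9 ± 2.29 with stereotypy, 64.0 ± 3.96 without and 65.1 ± 3.88 in controls, with overlapping libraries. No test was made of these sums. Within the CPEB family, Cpeb1 made up 6.83% ± 1.87 of the sum with stereotypy, 9.38% ± 2.09 without and 11.4% ± 0.490 in controls, and Cpeb4 40.9% ± 2.005, 34.6% ± 2.76 and 38.4% ± 1.83 in the same 3 groups. The FMRP sum was mostly Fxr2, at 67.9% ± 3.32 with stereotypy, 75.3% ± 3.34 without and 73.8% ± 4.90 in controls. In the same order Fxr1 made up 20.7% ± 2.18, 16.5% ± 1.93 and 16.5% ± 2.32, and Fmr1 11.4% ± 1.16, 8.19% ± 1.47 and 9.70% ± 2.63.

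**Figure D1:**
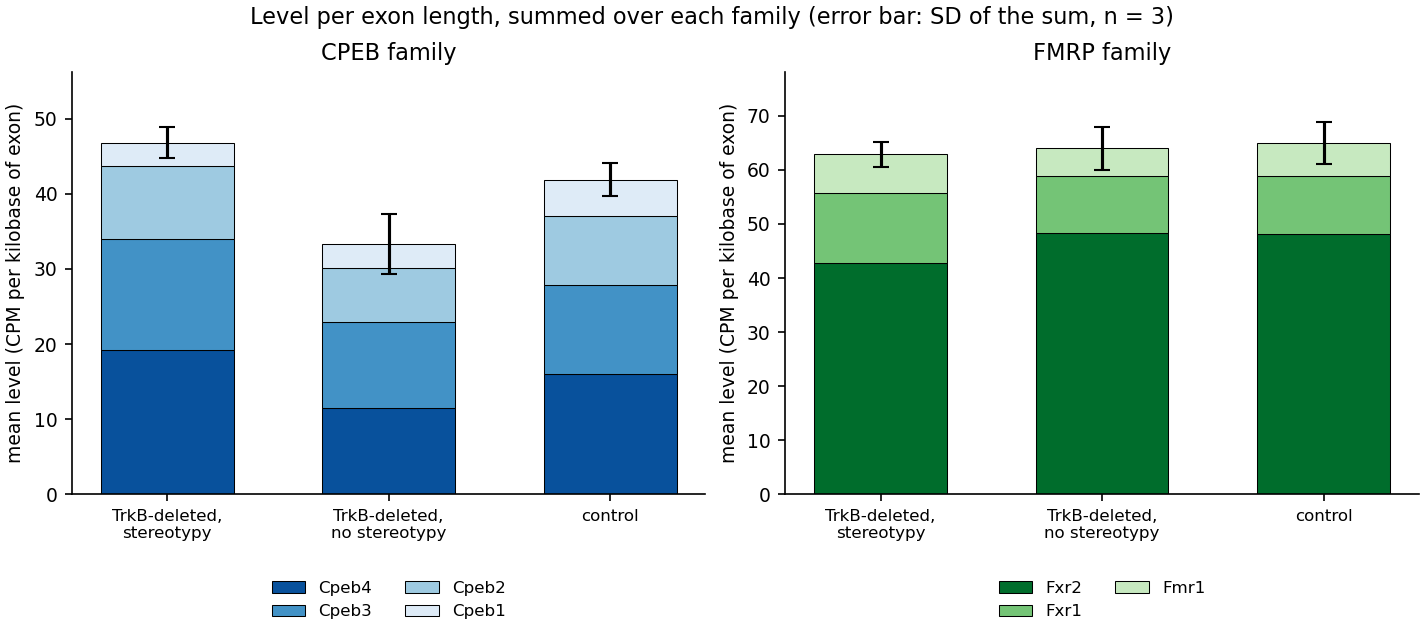
Stacked mean levels of the CPEB mRNAs (left) and FMRP mRNAs (right) in CPM per kilobase of exon, by group; the error bar is the SD of the family sum over 3 libraries. The CPEB sum was 46.8 with stereotypy, 33.3 without and 41.9 in controls, and the FMRP sums were 62.9, 64.0 and 65.1 in the same order.

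In the limma fit, Cpeb4 was the only member to pass in any comparison. Its level was lower without stereotypy than in the other groups. With stereotypy against controls, 0 of 7 members passed (limma, 4 at an unadjusted p under 0.05; 0 by edgeR and 0 by DESeq2), where 5.1% of tested genes passed, 3.58% higher and 1.53% lower. Of all tested genes, 24.0% had an unadjusted limma p under 0.05 in that comparison. Without stereotypy against controls, 1 of 7 passed (1 by edgeR; 2 by DESeq2, Cpeb2 and Cpeb4), where 6.77% of genes passed, 3.76% higher and 3.01% lower. Between the TrkB-deleted groups 1 of 7 passed (1 by edgeR; 3 by DESeq2, Cpeb2, Cpeb3 and Cpeb4), where 10.2% of genes passed, 6.61% higher and 3.6% lower with stereotypy. With the TrkB-deleted groups combined, 0 of 7 passed (limma, 1 at an unadjusted p under 0.05; 0 by edgeR and 1, Cpeb1, by DESeq2), where 5.72% of genes passed, 3.67% higher and 2.05% lower. An unadjusted limma p under 0.05 was reached there by 20.4% of all tested genes. In the F test for any difference 1 of 7 passed, where 14% of genes passed. In the comparison of the TrkB-deleted groups, 5 members were higher in every stereotypy library than in every library without, which held for 20.8% of tested genes. The median log2 change of the 7 was 0.37 there against 0.02 over all tested genes, and 0.21 with and -0.24 without stereotypy against controls, where all genes had medians of 0.05 and 0.03. The last pair of comparisons shares its control libraries. The counts move with single libraries. After leaving out library 2 or 3 of the group with stereotypy, or library 1 or 2 of the group lacking it, no member and at most 1 gene in all passed between the TrkB-deleted groups. For the comparison of the group lacking stereotypy with controls, no member passed after leaving out its library 1 or 2. After leaving out its library 3, 3 members passed in each of these comparisons and 1 (Cpeb1) with the TrkB-deleted groups combined. Between the TrkB-deleted groups 4 members passed after leaving out control library 2 and 2 after leaving out control library 3.

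**Figure D2:**
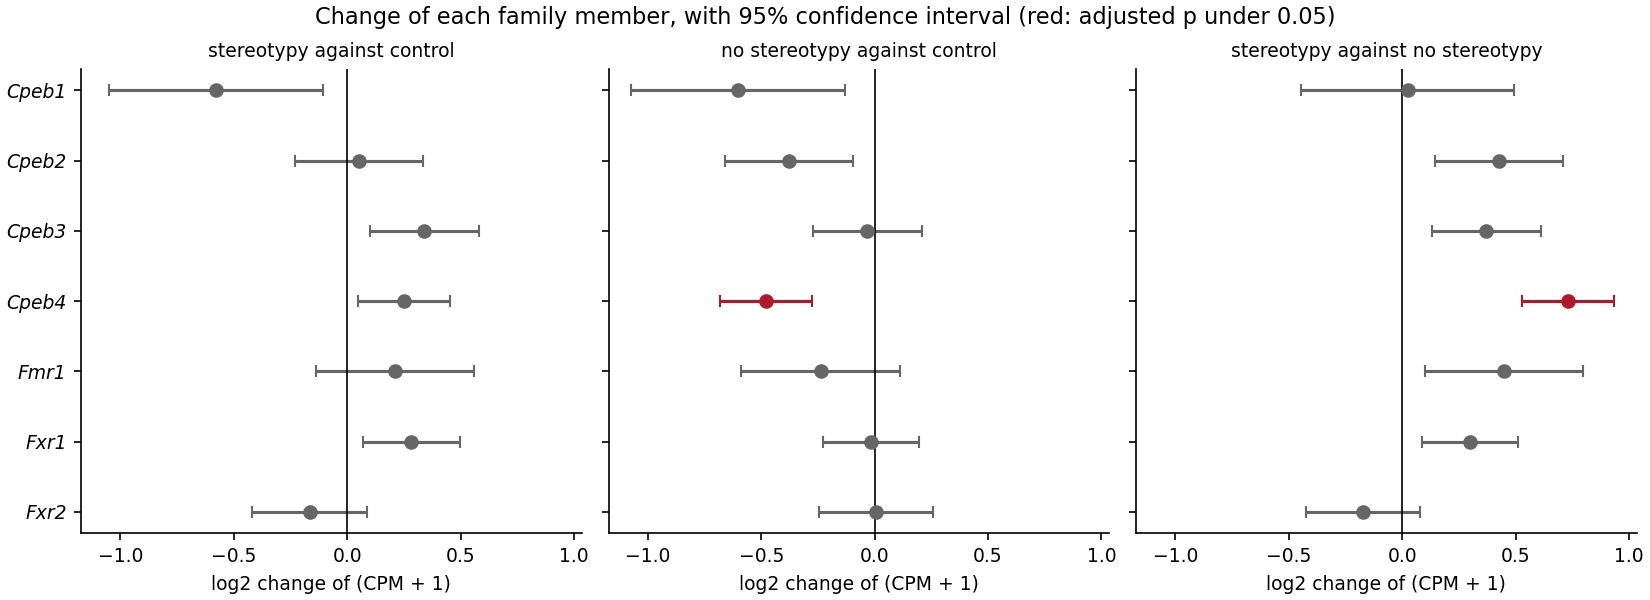
Log2 change of (CPM + 1) of each member, as a point with its 95% confidence interval, with stereotypy against control (left), without stereotypy against control (middle) and with against without stereotypy (right); red marks an adjusted p under 0.05. Cpeb4 is red in the middle (-0.48) and right (0.73) panels, and no other member is.

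Cpeb4 (ENSMUSG00000020300, chr11:31872211-31935634, plus strand) separated all 3 groups. It encodes the CPEB protein known for sustaining polyadenylation late in the cell cycle and under stress, and in neurons it includes a microexon whose skipping has been linked to autism. It had 110, 128 and 129 CPM in the libraries with stereotypy and 72.3, 68.2 and 78.8 CPM in those without, against 104, 101 and 101 CPM in controls. Every stereotypy library lay above, and every library without stereotypy below, all 3 controls. Of all tested genes, 18.0% lay above all controls in every stereotypy library. In every library without stereotypy, 10.6% lay below all controls, and the share that did both was not counted. Cpeb4 was 1.67-fold higher with than without stereotypy (log2 change 0.73, SE 0.09, 95% interval 0.53 to 0.93, limma with Benjamini-Hochberg adjustment over all tested genes, adjusted p = 0.0154). Without stereotypy it fell to 0.716 of the control level (log2 change -0.48, SE 0.09, limma adjusted p = 0.0128). With stereotypy its level was 1.195 times that of controls, which did not pass (log2 change 0.25, SE 0.09, limma adjusted p = 0.131). The F test across all 3 groups also passed (limma adjusted p = 0.00469).

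**Figure D3:**
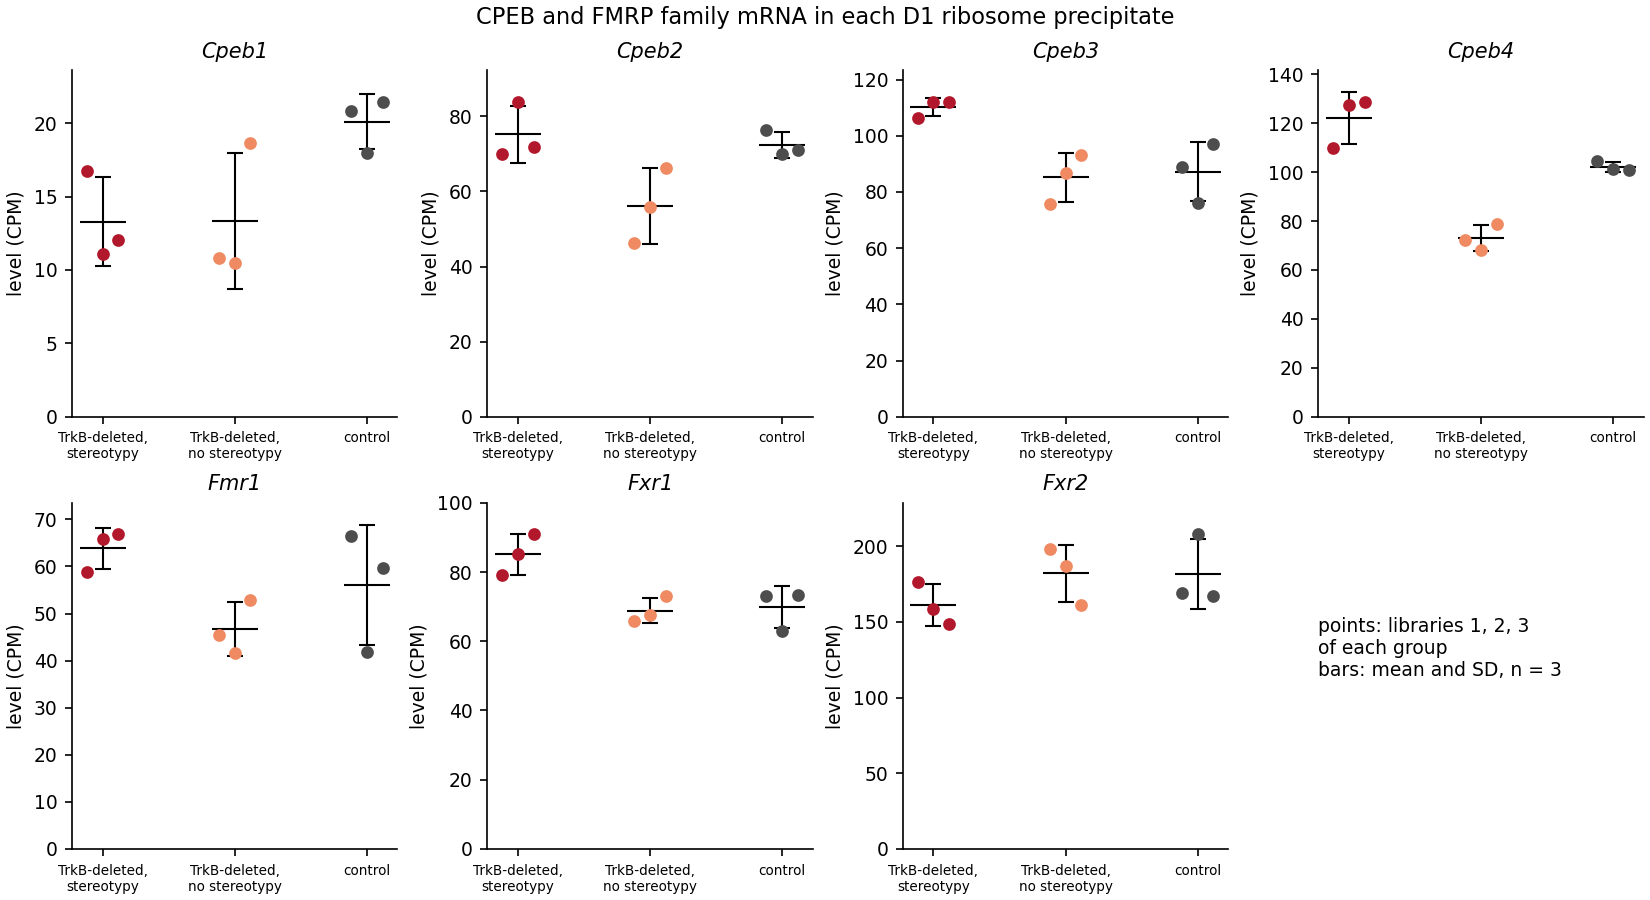
Level in CPM of each of the 7 members in each library, with stereotypy (left), without stereotypy (middle) and control (right) in every panel; points are libraries, the bar is the mean and the whisker the SD of 3. Cpeb4 ran from 110 to 129 with stereotypy, 68.2 to 78.8 without and 101 to 104 in controls, with no overlap between groups.

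The Cpeb4 calls rest on small groups. The difference between the TrkB-deleted groups no longer passed after leaving out library 2 (limma adjusted p = 0.0579) or 3 (0.0730) of the group with stereotypy, or library 1 (0.0610) or 2 (0.0613) of the group lacking it, with log2 changes of 0.68 to 0.72. The fall against controls no longer passed after leaving out library 1 (0.0599) or 2 (0.0597) of the group lacking stereotypy.

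The other CPEB mRNAs gave no call in the limma fit. Cpeb3 (ENSMUSG00000039652, chr19:37021291-37208601, minus strand) encodes a repressor that is related to the fly memory protein Orb2 and that turns into an activator in stimulated neurons. It had 106, 112 and 112 CPM with stereotypy and 75.7, 86.8 and 93.1 CPM without, against 88.7, 76.0 and 97.1 CPM in controls. The stereotypy libraries lay above all 6 others, but the log2 changes of 0.37 (SE 0.11, limma adjusted p = 0.0538) against the group without stereotypy and 0.34 (SE 0.11, limma adjusted p = 0.0933) against controls did not pass. Cpeb2 (ENSMUSG00000039782, chr5:43233170-43289724, plus strand) restrains translation elongation in other cells. It had 69.9, 83.9 and 71.9 CPM with stereotypy and 46.2, 55.9 and 66.3 CPM without, against 76.3, 70.0 and 71.0 CPM in controls. All 3 libraries without stereotypy were below the other 6, and neither the log2 change of -0.38 (SE 0.13, limma adjusted p = 0.114) against controls nor that of 0.43 (SE 0.13, limma adjusted p = 0.0579) between the TrkB-deleted groups passed. With stereotypy, Cpeb2 differed from controls by 0.05 on the log2 scale (95% interval -0.23 to 0.33).

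Cpeb1 (ENSMUSG00000025586, chr7:81347026-81455465, minus strand) had a lower mean level in both TrkB-deleted groups than in controls, without passing the test. It encodes the founding member of the family, which in hippocampal neurons drives polyadenylation of the kinase mRNA Camk2a. It had 16.7, 11.1 and 12.1 CPM with stereotypy and 10.8, 10.5 and 18.7 CPM without, against 20.9, 18.0 and 21.5 CPM in controls. The stereotypy libraries were all below the controls, while library 3 of the group without stereotypy lay inside the control range. Relative to controls, the mean level was 0.662 with stereotypy and 0.663 without it. The change of both TrkB-deleted groups together against controls was -0.59 on the log2 scale (SE 0.19, limma adjusted p = 0.0950) and did not pass. The 2 groups differed from each other by 0.02 (95% interval -0.45 to 0.50), an interval that leaves room for a difference of the size seen in Cpeb2. At 327 to 762 reads per library, Cpeb1 was also the member with the fewest reads.

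None of the FMRP family passed in any comparison by limma, edgeR or DESeq2, but Fmr1 and Fxr1 ranked the TrkB-deleted groups as Cpeb2, Cpeb3 and Cpeb4 did. Fmr1 (ENSMUSG00000000838, chrX:68678541-68717963, plus strand) had 58.9, 65.9 and 66.9 CPM with stereotypy and 45.5, 41.6 and 53.0 CPM without, against 66.5, 41.8 and 59.7 CPM in controls. The TrkB-deleted groups did not overlap (log2 change 0.45, SE 0.16, limma adjusted p = 0.0900), while the controls spanned nearly the whole range of both. Fxr1 (ENSMUSG00000027680, chr3:34019943-34070322, plus strand), which has roles in muscle as well as brain, had 79.1, 85.3 and 91.0 CPM with stereotypy and 65.9, 67.7 and 73.0 CPM without, against 73.2, 62.8 and 73.4 CPM in controls. The stereotypy libraries lay above the other 6, with log2 changes of 0.30 (SE 0.10, limma adjusted p = 0.0689) against the group without stereotypy and 0.28 (SE 0.10, limma adjusted p = 0.108) against controls. Fxr2 (ENSMUSG00000018765, chr11:69632990-69653297, plus strand) had 176, 159 and 149 CPM with stereotypy and 198, 187 and 161 CPM without, against 169, 208 and 167 CPM in controls. The groups overlapped throughout, and the 3 log2 changes lay between -0.17 and 0.01. Within every group, the order of the libraries by Fxr1 was the reverse of their order by Fxr2. Fxr1 shares 178 exon bases with Dnajc19 on the opposite strand (mean 3.47 CPM), and reads there cannot be assigned because the use of strand is not known.

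The changes ran along with base composition. Transcripts of Cpeb4, Fmr1 and Fxr1 have a GC content of 39.3%, 39.2% and 39.4%, in the lowest of 5 equal classes of tested genes ranked by GC content, Cpeb2 (47.5%) and Cpeb3 (47.7%) lie in the second class, Cpeb1 (48.2%) in the third and Fxr2 (58.5%) in the highest. Between the TrkB-deleted groups, the median log2 change of the tested genes was 0.30 in the lowest class, 0.13 in the second, 0.01 in the third, -0.12 in the fourth and -0.21 in the highest. Cpeb4 (0.73) lay above the upper quartile of its class (0.46), as did Cpeb2 (0.43) and Cpeb3 (0.37) of theirs (0.27), while Fmr1, Fxr1, Cpeb1 and Fxr2 lay between the quartiles of their classes. Once the dependence of each library on GC content and transcript length had been taken out, the difference in Cpeb4 was 0.34 (limma adjusted p = 0.0991), that in Fmr1 0.09, that in Fxr1 -0.02 and that in Fxr2 0.05, while 11 genes in all passed in place of 1398. The differences in Cpeb2 and Cpeb3 were at least 0.29 and 0.26 under every alternative setting, this one included. The fall of Cpeb4 against controls was then -0.33 (limma adjusted p = 0.0562), Cpeb1 stood at -0.64 with and -0.63 without stereotypy against controls, and no member passed.

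**Figure D4:**
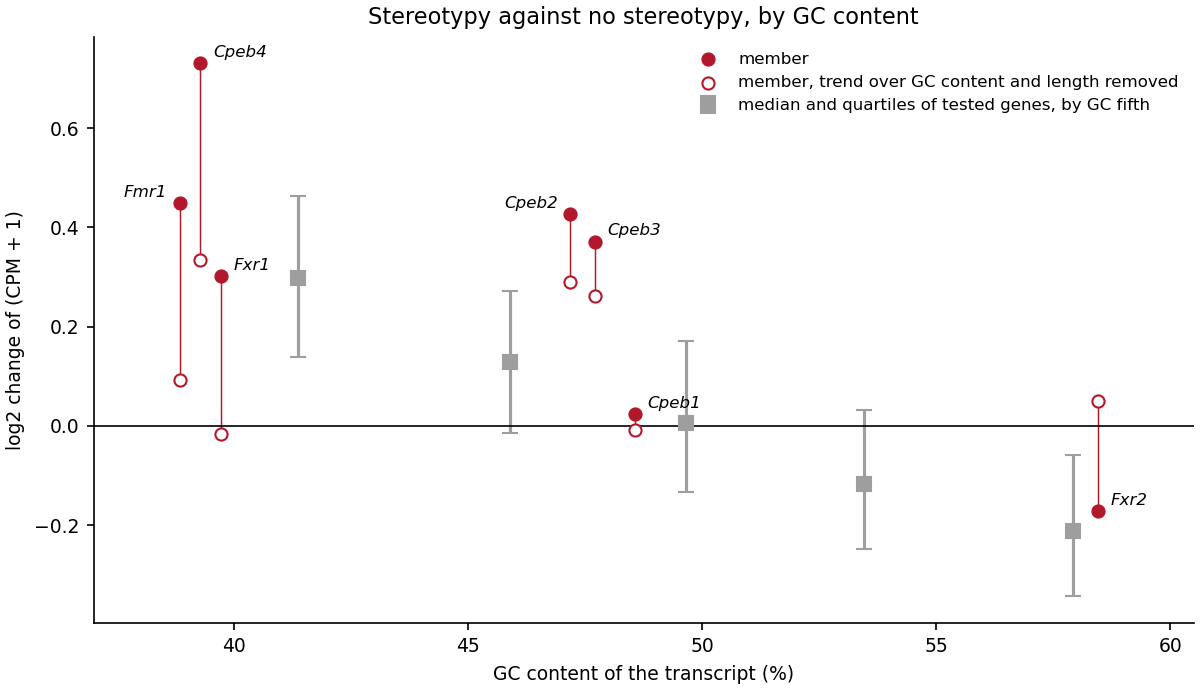
Log2 change of (CPM + 1), with against without stereotypy, plotted against transcript GC content in percent; filled points are the members, open points the same after removal of the trend over GC content and length, grey squares and bars the median and quartiles of tested genes in each class of GC content. Overlapping members are drawn slightly beside their GC value. Cpeb4 is at 0.73 filled and 0.34 open and Fxr1 at 0.30 filled and -0.02 open, and the grey medians ran downward with GC content, 0.30 in the lowest class and -0.21 in the highest.

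Markers of other cells moved with the same comparisons. Of the 10 astrocyte markers, 5 were higher with stereotypy than in controls, as were 3.58% of all tested genes. Of the 6 cortical excitatory markers 2 were lower with than without stereotypy, as were 3.6% of all tested genes (limma adjusted p under the threshold of 0.05 in each count). The 5 tested markers of D2 neurons, the striatal neurons of the indirect pathway, summed to 259 to 424 CPM with stereotypy, 597 to 1050 CPM without and 443 to 1433 CPM in controls, and all 5 had negative log2 changes with against without stereotypy (median log2 change -1.23). The 7 interneuron markers also all had negative changes (median -1.19), whereas all 8 microglial markers (median 0.58) and 7 of 8 vascular markers (median 1.11) had positive ones. The 8 D1 neuron markers summed to 2296 to 2397 CPM with stereotypy, 1548 to 1917 CPM without and 1868 to 2527 CPM in controls. Of these markers 2 were called higher with than without stereotypy, as were 6.61% of all tested genes. When glial and vascular marker levels entered the model as a score, the difference in Cpeb4 between the TrkB-deleted groups was 0.66 (limma adjusted p = 0.0429) and its fall against controls -0.51 (0.0376). When the score was of other neurons instead, the same difference was 0.75 (0.0931), where no gene at all passed between the TrkB-deleted groups. The fall was then -0.49 (0.0158), and Cpeb3 with stereotypy passed against controls (0.50, 0.0384).

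The genes whose levels followed each member most closely over the 9 libraries were taken from 9874 protein-coding genes by Pearson's r of log2 levels, given as a description. They were Csmd3 (0.982) and Pak2 (0.979) for Cpeb4, Zfp518a (0.983) and Utp14b (0.978) for Cpeb3, Stx17 (0.956) and Zfp597 (0.954) for Cpeb2, and Irf2 (0.953) and Cdv3 (0.950) for Cpeb1. For the FMRP family they were Cadm2 (0.985) and Triqk (0.978) for Fmr1, Myo9a (0.996) and Arid2 (0.992) for Fxr1, and Rnf31 (0.980) and Chpf (0.977) for Fxr2. The 9 points share groups, depth and dependence on base composition.

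The machinery around the CPEB proteins differed between the TrkB-deleted groups in few genes. The lists of partners and targets used here and below were written with earlier results of these data known. Their shares are therefore descriptions and no test of the lists. Of 24 partners in cytoplasmic polyadenylation and CPEB complexes, 3 were higher with than without stereotypy and none lower, a share of 12.5%, against 10.2% of all tested genes called and 6.61% called higher. They were Ddx6, an RNA helicase of silencing granules (0.47 on the log2 scale, SE 0.11, limma adjusted p = 0.0296), Pum2, a repressor that can bind beside CPEB1 (0.36, SE 0.09, 0.0332), and, named after its value was seen, Lsm14a of the same granules (0.32, 0.0497). Of 13 subunits of the CCR4-NOT and PAN deadenylases, which shorten poly(A) tails, the 3 that passed (23.1%) were all catalytic and all higher with stereotypy, namely Cnot6 (0.67, SE 0.12), Cnot6l (0.58, SE 0.11) and Cnot7 (0.47, SE 0.10), at limma adjusted p-values of 0.0206, 0.0206 and 0.0258. Cnot6l had 58.4, 71.4 and 64.9 CPM with stereotypy and 40.4, 41.3 and 47.6 CPM without, against 52.9, 51.2 and 58.3 CPM in controls. The groups did not overlap, but the lowest stereotypy library (58.36 CPM) and the highest control (58.29 CPM) nearly tied. Against controls no gene of either list passed in either group (limma; 3 to 6 per list and group at an unadjusted p under 0.05; by edgeR 0 with stereotypy and 1 of each list without, by DESeq2 up to 3). Of all tested genes, 24.0% with stereotypy and 22.5% without had an unadjusted limma p under 0.05 against controls. Neurl1a, the ubiquitin ligase that activates CPEB3 in mouse hippocampus and the most abundant of the partners, had 264, 262 and 261 CPM with stereotypy and 319, 322 and 268 CPM without, against 328, 359 and 300 CPM in controls, and its log2 change with stereotypy against controls was -0.32 (limma adjusted p = 0.0768).

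Partners of FMRP and other neuronal RNA-binding proteins, on lists also written with earlier results known, gave calls in the same direction. Of 20 FMRP partners, 4 were higher with than without stereotypy and none lower (20.0%, against 6.61% of all tested genes called higher): Syncrip, a component of mRNA granules (0.65, SE 0.16, limma adjusted p = 0.0331), Nufip2, named as an FMRP-interacting protein (0.63, SE 0.14, 0.0250), and, named after their values were seen, Mov10 (0.55) and Pura (0.44). Cyfip2, the partner that links FMRP to the actin-regulating WAVE complex, was the most abundant and differed by 0.01 between these groups (limma adjusted p = 0.922). Of 30 tested genes for other RNA-binding proteins, 5 were higher with than without stereotypy (16.7%), among them Qk (0.74, SE 0.19, limma adjusted p = 0.0359), which is abundant in glia, and Elavl1 (0.41, SE 0.09, 0.0271). The median log2 changes were 0.07 for the CPEB partners, 0.26 for the deadenylases, 0.18 for the FMRP partners and 0.19 for the other RNA-binding proteins, against 0.02 for all tested genes. Of the 15 genes called in these 4 lists, 10 lie in the lowest class of GC content, and none passed with the trend over GC content and length removed, with the glial and vascular score in the model or with that of other neurons. None passed either after leaving out library 2 or 3 of the group with stereotypy or library 1 or 2 of the group lacking it, and Ddx6, Pum2, Syncrip and Qk also missed the threshold after leaving out library 1 of the group with stereotypy. With the score of other neurons no gene at all passed between these groups. Far fewer of all tested genes than in the main fit passed with the trend removed or the glial and vascular score. Hardly any passed after leaving out library 2 or 3 of the group with stereotypy or library 1 or 2 of the group lacking it. The losses are thus not particular to these lists. Against controls no FMRP partner passed in either group (limma; 5 per group at an unadjusted p under 0.05; 0 by edgeR; by DESeq2 1 with stereotypy and 2 without). The share of all tested genes at an unadjusted limma p under 0.05 was 24.0% with stereotypy and 22.5% without. Of the other RNA-binding proteins, the RNA-splicing gene Khdrbs2 (0.70, SE 0.16, limma adjusted p = 0.0329) and, named after its value was seen, Zfp36l1 (0.75, 0.0428) were higher with stereotypy than in controls, though neither with the glial and vascular score in the model nor with the trend removed. Khdrbs2 missed the threshold after leaving out library 2 or 3 of the group with stereotypy, control library 2 or 3, or library 1 or 2 of the group lacking stereotypy. Zfp36l1 missed it, or no longer passed the filter on low values, after leaving out any library.

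Among the mRNAs known as CPEB targets, Gria2 changed. It encodes the AMPA receptor subunit GluA2, whose mRNA is repressed by CPEB3 in hippocampal neurons, and its 3′ UTR of 7268 bases holds 22 elements. The copy nearest to the end is shown for comparison with those of the family.
Gria2, minus strand, chr3:80681683-80681712: catgtctgttcaTTTTAATttaatgttttt

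Gria2 had 1046, 1074 and 1272 CPM with stereotypy and 698, 762 and 816 CPM without, against 1363, 1124 and 1313 CPM in controls. Without stereotypy it fell below all other libraries, to 0.599 of the control mean (log2 change -0.74, SE 0.11, limma adjusted p = 0.00436), and it was higher with than without stereotypy (0.57, SE 0.11, 0.0225). The fall passed under all 23 alternative settings, with log2 changes of -0.82 to -0.52. The difference between the TrkB-deleted groups no longer passed with either marker score in the model or after leaving out library 2 or 3 of the group with stereotypy or library 1 or 2 of the group lacking it. With the score of other neurons no gene at all passed between these groups, and hardly any after leaving out any of these libraries. After removal of the GC and length trend the difference was 0.02 (limma adjusted p = 0.939), and Gria2 (GC content 36.8%) was then lower than in controls both with (-0.50, 0.0133) and without stereotypy (-0.52, 0.00673). In the main fit, Gria2 was also lower in both TrkB-deleted groups together than in controls (-0.45, SE 0.10, limma adjusted p = 0.0223). That call was lost under 7 of 22 alternative settings. Stat5b, also on this list, was higher in both TrkB-deleted groups together than in controls (0.31, SE 0.08, limma adjusted p = 0.0490). Whether a CPEB protein binds its mRNA was not checked here. The Stat5b call was lost under 16 of 22 alternative settings (adjusted p up to 0.406). Among left-out libraries, it was kept only for library 3 of the group lacking stereotypy (adjusted p up to 0.120). No other gene of the 13 tested targets passed. Camk2a, the most abundant, had a log2 change of 0.15 with stereotypy and 0.23 without against controls (limma adjusted p = 0.364 and 0.184).

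Of 36 tested mRNAs known as FMRP targets, 3 passed in each comparison with controls and 5 between the TrkB-deleted groups, with medians of -0.08 with stereotypy, -0.02 without and 0.01 between the groups. These are 8.33% of the list with stereotypy and 8.33% without, against 5.1% and 6.77% of all tested genes, and 13.9% between the groups, against 10.2%. This list too was written with earlier results of these data known. Dlgap3 encodes the postsynaptic scaffold SAPAP3, whose loss causes compulsive grooming in mice. It had 463, 396 and 421 CPM with stereotypy and 543, 505 and 482 CPM without, against 559, 675 and 703 CPM in controls. Its levels did not overlap between any of the groups, being lowest with stereotypy, and it fell to 0.661 of the control mean there (log2 change -0.59, SE 0.11, limma adjusted p = 0.0135). That call was lost under 3 of 23 alternative settings (adjusted p up to 0.393). These included leaving out library 2 or 3 of the group with stereotypy (adjusted p up to 0.0768). Dlgap3 was not called between the TrkB-deleted groups, and its GC content (63.9%) lies in the highest class. With the GC and length trend removed, it was lower than in controls both with stereotypy (-0.49, limma adjusted p = 0.0122) and without (-0.45, 0.0107). Gabbr1, a subunit of the GABA-B receptor, had 990, 946 and 993 CPM with stereotypy and 979, 967 and 899 CPM without, against 1200, 1270 and 1182 CPM in controls. It was lower than in controls with stereotypy (-0.32, SE 0.08, limma adjusted p = 0.0455) and without (-0.36, SE 0.08, 0.0230), and the controls lay above all 6 TrkB-deleted libraries. The call with stereotypy was lost under 14 of 23 alternative settings (adjusted p up to 0.746), and the call without stereotypy under 6 of 23 (up to 0.103). Among left-out libraries, the call with stereotypy was kept only for library 3 of the group lacking stereotypy (adjusted p up to 0.169). The call without stereotypy was lost on leaving out control library 1 or library 1 or 2 of its own group (up to 0.0728).

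Grm5, which encodes the glutamate receptor mGluR5 whose signalling is exaggerated in Fmr1 knockout mice, had 381, 438 and 421 CPM with stereotypy and 217, 222 and 252 CPM without, against 466, 313 and 415 CPM in controls. It fell to 0.579 of the control mean without stereotypy (log2 change -0.77, SE 0.13, limma adjusted p = 0.00875), a call kept under all 23 alternative settings, and was higher with than without stereotypy (0.84, SE 0.13, 0.0154). The potassium channel gene Kcnc1 had 147, 122 and 121 CPM with stereotypy and 171, 160 and 183 CPM without, against 103, 108 and 132 CPM in controls, and was higher without stereotypy than in controls (0.59, SE 0.12, limma adjusted p = 0.0139). That call was lost under 3 of 23 alternative settings (adjusted p up to 0.0594). These included leaving out control library 1 or library 1 of the group lacking stereotypy. Ank3, an organizer of the axon initial segment, was higher with stereotypy than in controls (0.40, SE 0.10, 0.0406). The Ank3 call was lost under 15 of 23 alternative settings (adjusted p up to 0.402). Among left-out libraries, it was kept only for control library 1 or library 3 of the group lacking stereotypy. Between the TrkB-deleted groups, Kcnd2 was higher (0.55, SE 0.13, 0.0314) and Dlgap4 lower (-0.43, SE 0.11, 0.0395) with stereotypy. None of the 5 calls between these groups passed after leaving out library 2 or 3 of the group with stereotypy or library 1 or 2 of the group lacking it, where hardly any tested gene passed. Those of Kcnd2 and Dlgap4 were lost on leaving out any of the 6 TrkB-deleted libraries. With the GC and length trend removed none of the 5 passed either (Grm5 0.54, adjusted p = 0.0651), and Ank3 with stereotypy against controls was 0.20 (0.302). Under the same setting, the targets lower in both TrkB-deleted groups together than in controls included, named after their values were seen, Dlgap3 (-0.47, limma adjusted p = 0.00415), Gabbr1 (-0.43, 0.00619), Grm5 (-0.43, 0.0129) and Cyfip2 (-0.30, 0.0304), which is also on the list of FMRP partners.

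**Figure D5:**
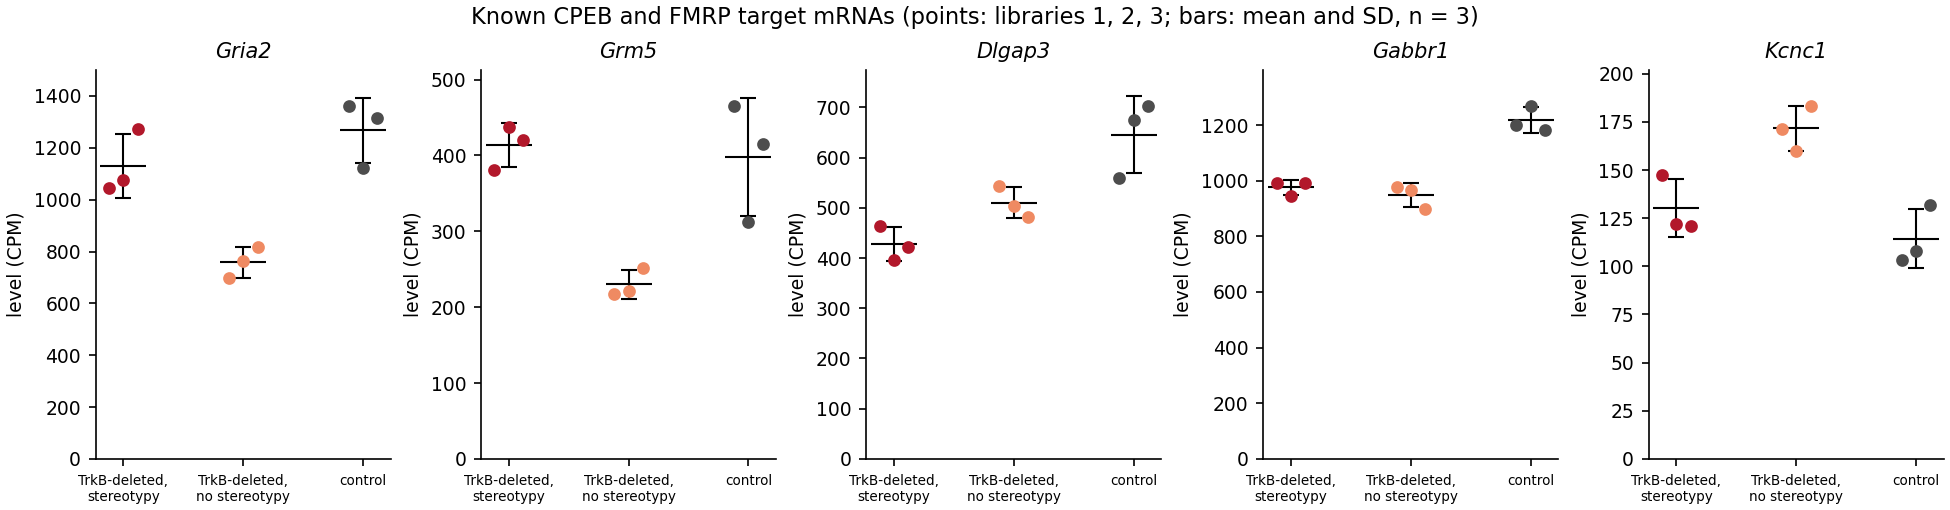
Level in CPM of 1 known CPEB target (Gria2) and 4 known FMRP targets by library, with stereotypy (left), without stereotypy (middle) and control (right) in every panel; points are libraries, the bar is the mean and the whisker the SD of 3. Gria2 and Grm5 were lowest without stereotypy (698 to 816 and 217 to 252 CPM), Dlgap3 was lowest with stereotypy (396 to 463 CPM), and Gabbr1 was below the controls in all 6 TrkB-deleted libraries.

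Over all tested genes with a 3′ UTR, more of those with an element than of those without were called higher with stereotypy than without, and fewer were called lower. Of 2331 genes with an element in the last 100 bases, 9.22% were called higher and 1.97% lower with than without stereotypy (median log2 change 0.09). Of 5482 genes with an element further upstream only, 9.67% were higher and 2.12% lower (median 0.10), and of 4272 genes with none, 1.62% were higher and 7.40% lower (median -0.13). Genes without an element also had shorter 3′ UTRs (median 550.5 bases, against 1459 and 2050) and a higher GC content (median 53.9%, against 47.8% and 47.4%), and the part of these in the difference was not tested.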

How the data were processed

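The authors deposited CPM values (counts per unit of library total) for 47729 Ensembl identifiers, 1 table per library. TopHat and GRCm38 are named in the submitters' processing notes, while the counting tool, its annotation and whether it used strand were not given in the sources used here. Every value was a whole multiple of what 1 read is worth, within 0.1 reads, so whole reads were recovered, 27103152 to 40578512 per library. Names, lengths and sequences came from GENCODE M21, to which 99.12% of identifiers matched.

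A gene was tested if 3 or more libraries had 1 CPM or more. Levels entered as log2(CPM + 1), a scale that shrinks the changes of low genes, into 1 limma fit (limma 3.58.1, R 4.3.3) of all 9 libraries with a mean per group and 6 residual degrees of freedom. Benjamini-Hochberg adjustment ran over the 13695 tested genes, the threshold was 0.05, and the fit was tested on simulated data. Alternatives included edgeR 4.0.16 and DESeq2 1.42.0 on the recovered reads, which between the TrkB-deleted groups called 1335 and 2343 genes in place of 1398, other scalings and filters, marker covariates and leaving out each library. Removal of the GC and length trend, and the settings for partners and targets, were added after seeing the data. From each list of partners or targets, the rule named the 2 called genes with the largest change per direction and comparison at a mean of at least 5 CPM or, where none was called, the most abundant gene. Members and lists were chosen with earlier results of these data known. P-values measure the spread between 3 libraries per group that the labels call biological replicates. The longest run of bases shared by any pair of members is 29 (Cpeb2 and Cpeb4). The result of 1 target gene after removal of the trend is not reported here.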

Additional observations from a re-analysis of the deposited data

Results flagged for a closer look

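Cpeb4 differed between the TrkB-deleted groups in its change against the shared controls, with a log2 change of 0.73 with against without stereotypy (limma adjusted p = 0.0154), and every library with stereotypy lay above and every library without below all controls. The same comparison passed for the partners Ddx6 (0.47), Pum2 (0.36), Cnot6 (0.67), Cnot6l (0.58), Syncrip (0.65) and Nufip2 (0.63), for the RNA-binding proteins Qk (0.74) and Elavl1 (0.41), and for the targets Grm5 (0.84), Kcnd2 (0.55), Dlgap4 (-0.43) and Gria2 (0.57). Among these, Cnot6l alone shared with Cpeb4 the position of both groups on opposite sides of all controls. In Cnot6l this rested on a near tie of the lowest stereotypy library (58.36 CPM) with the highest control (58.29 CPM). How many of all tested genes take that position was not counted.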

How the results depend on the processing

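Of the changes of single members, each under all alternatives, 527 of those not called and 37 of those called kept their direction and side of the threshold, 9 called ones lost their call, 27 gained one and 37 changed sign. The cause of a change was not tested.

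Genes called with stereotypy against controls (699) became 330 without a filter, 2 with the glial covariate, 326 in the 6 libraries compared, 1522 by DESeq2 and 124 to 803 on leaving out a library; members called (0) became 1 with the other-neuron covariate. Without stereotypy (927 genes) the same settings gave 484, 387, 568, 1509 and 316 to 933, and array weights 1873; members called (1) became 3 with array weights, 2 by DESeq2, 0 with the trend removed and 0 to 3 on leaving out a library. Between the TrkB-deleted groups (1398) there were 572 without a filter, 4698 with array weights, 242 with the glial and 0 with the other-neuron covariate, 2343 by DESeq2, 11 with the trend removed and 0 to 1988 on leaving out a library. Members called there (1) became 2 at a mean of at least 5 CPM, 6 with array weights, 0 with the other-neuron covariate, 4 in the 6 libraries compared, 3 by DESeq2, 0 with the trend removed and 0 to 4 on leaving out a library. With both TrkB-deleted groups together (784) there were 392 without a filter, 37 with the glial and 1242 with the other-neuron covariate, 1326 by DESeq2 and 414 to 732 on leaving out a library; members called (0) became 1 with array weights, 1 by DESeq2 and 0 to 1 on leaving out a library.

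Cpeb2 with stereotypy against controls (0.05 on the log2 scale) was -0.0033 with median-of-ratios scaling, -0.038 with the glial covariate, -0.0015 by edgeR, -0.11 with the trend removed and -0.029 to 0.10 on leaving out a library. Fmr1 there was -0.17 with the glial covariate. Without stereotypy against controls, Fxr2 (0.01) was -0.029 with median-of-ratios scaling, -0.036 by edgeR, -0.032 by DESeq2, -0.15 with the trend removed and -0.056 to 0.11 on leaving out a library. Fxr1 was 0.13 with the trend removed and -0.091 to 0.020, and Cpeb3 -0.13 to 0.049, on leaving out a library. Between the TrkB-deleted groups, Cpeb1 (0.02) was -0.010 with quantile normalization, -0.23 with the glial covariate, -0.018 by edgeR, -0.023 by DESeq2, -0.0078 with the trend removed and -0.14 to 0.28 on leaving out a library, and with the trend removed Fxr1 was -0.017 and Fxr2 0.050. With both groups together, Fxr2 was 0.0052 with the glial covariate and -0.14 to 0.022 on leaving out a library, and Fmr1 (-0.01) was 0.030 with the other-neuron covariate and -0.21 to 0.12.

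Libraries with the same replicate number deviated together only in part: their correlations ran from -0.080 to 0.41 over 9 pairs, against -0.42 to 0.25 for other pairs, and 7 of 9 libraries correlated best with their own number, a hint from the data and not the design. With the replicate number as a block, 917 genes passed with stereotypy against controls, 1099 without, 1788 between the TrkB-deleted groups and 880 with both together, and 2 members passed between the TrkB-deleted groups. Every library with stereotypy held fewer reads (at most 31117135) than every other library (at least 32615356), and the part of depth in the results was not tested.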
